A study of Mus musculus with 25 samples.

Results

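Threonine 41 of β-catenin was replaced by alanine (T41A), isoleucine (T41I), asparagine (T41N) or serine (T41S) in mouse embryonic stem (ES) cell clones, and the clones carrying the 2 strong substitutions (T41A and T41I) were compared with those carrying the 2 weak ones (T41N and T41S). The comparison used 6 of the 25 libraries of the series, chosen by the genotype in their labels. There were 2 clones of T41A, 2 of T41I, 1 of T41N and 1 of T41S. All 6 clones were made in the E14 line by CRISPR repair of 1 *Ctnnb1* allele and were heterozygous for the mutation. They were grown in serum with leukaemia inhibitory factor (LIF), the cytokine that keeps mouse ES cells undifferentiated, without the GSK3 inhibitor CHIR99021 (0 µM, 48 h). Unedited E14 cells at 0 µM CHIR99021 (2 libraries) served as the background, and 10 unedited libraries over 5 doses of CHIR99021 gave a readout that shares no library with the clones. Each library came from 1 clone, so in T41N and T41S the substitution and the clone cannot be told apart. Strong and weak are meant in the sense of the study's reporter screen of β-catenin activity, which used other ES cells.

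β-Catenin is the transcriptional effector of the canonical Wnt pathway. In the absence of a Wnt signal, casein kinase 1 and GSK3 phosphorylate a run of serine and threonine residues near its amino terminus, and the phosphorylated degron is recognised by the β-TrCP ubiquitin ligase, which sends the protein to the proteasome. Threonine 41 lies in this run, between the residue phosphorylated first and those that dock the ligase. Serine, like threonine, carries a hydroxyl group, which alanine, isoleucine and asparagine lack. In ES cells stabilised β-catenin relieves repression by TCF7L1 at pluripotency genes and activates targets through other TCF factors.

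The codons around the mutated residue are shown because every clone differs from E14 there. Codons 31 to 48 of *Ctnnb1* lie in exon 3 at chr9:120950599-120950652 (GRCm38, plus strand). Capitals mark codon 41, at chr9:120950629-120950631, in the reference sequence.

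Ctnnb1 codons 31 to 48: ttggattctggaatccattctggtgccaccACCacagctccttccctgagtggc

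RNA was measured by mcSCRB-seq, a 3′ method that counts unique molecular identifiers (UMIs). Levels are given as CPM, a gene's count scaled to a library total of 1000000. The 6 libraries held 495616 to 1770304 UMI counts, with T41N the shallowest and T41S the deepest. A count of 0 allowed up to 6.05 CPM in T41N and 1.69 to 2.33 CPM in the other 5. These limits come from a floor of 3 counts. Intervals of single libraries with counts above 0 are exact 95% binomial intervals and cover counting error only. Pearson correlations of log2 CPM over genes were 0.938 to 0.977 among the T41A and T41I clones, 0.940 between T41N and T41S, 0.869 to 0.890 between the T41A or T41I clones and T41N, and 0.813 to 0.831 with T41S. T41S thus stood farthest from the other libraries, and its values are given separately throughout. Genes of the Y chromosome were left out. *Pou5f1*, the marker that defines pluripotent cells, was at 14.1 to 28.7 CPM in the 6 clones. *Pou5f1* has near-identical pseudogenes, so this level is uncertain.

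No difference in transcripts of the edited gene was detectable. *Ctnnb1* (chr9:120929216-120960507, GRCm38) was at 482 and 527 CPM in the T41A clones, 513 and 491 CPM in the T41I clones, 434 CPM in T41N (interval 378 to 496) and 525 CPM in T41S (492 to 560). The untreated unedited libraries lay at 440 and 445 CPM. Between T41A and T41I and the weak pair, the log2 fold change was 0.09 ± 0.13 (SE, edgeR quasi-likelihood test, adjusted p = 0.679). No test of the mutant allele's share was made, since the counts do not separate alleles.

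Across all genes, 2251 of the 10242 tested (22.0%) differed at an adjusted p under 0.05 between the 4 T41A and T41I libraries and the 2 T41N and T41S libraries (edgeR quasi-likelihood test). Of these, 947 (9.25%) were higher in T41A and T41I and 1304 (12.7%) were lower. In 2166 of the 2251, both T41N and T41S lay outside the range of the 4 strong clones, against 4342 (42.4%) of all genes tested, in which the strong clones lay above both for 20% and below both for 22.4%. Taken alone against the 4 strong clones, T41N gave 418 calls (4.08%), 97 (0.947%) higher and 321 (3.13%) lower in the strong clones. T41S gave 2181 (21.3%), 895 (8.74%) higher and 1286 (12.6%) lower. Leaving out the second T41I clone raised the count against T41N to 911. In these fits the lone library was assumed to vary like the strong clones, and both fits share those 4 libraries. Without T41S the 2-group comparison gave 352 calls, of which 344 were among the 2251, all 344 in the same direction. Without T41N it gave 2305. Most calls were thus not made without T41S, and for most of the lists below counts without T41S are given where they are smaller. For the glycolysis, cholesterol synthesis, germ cell and 2-cell-like lists they were smaller too but are not given. The same holds for the Cdx, Hox and retinoic acid list. The part of depth, of the single clone and of the substitution in this loss was not tested.

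The direct β-catenin targets were split. The study had picked 10 targets on the CHIR99021 libraries, and 4 of the 10 were higher in T41A and T41I, none was lower and 6 were not called. Of all genes tested 9.25% were higher and 12.7% lower. The list median log2 fold change was 0.54 against 0.04 for all genes tested. *Cdx1*, a homeobox gene of posterior patterning on chromosome 18, was at 115 and 258 CPM in T41A and at 247 and 207 CPM in T41I. It stood at 32.3 CPM in T41N (interval 18.5 to 52.4) and 35.6 CPM in T41S (27.3 to 45.5), near the 27.7 and 28.7 CPM of untreated cells. The 4 strong clones lay above both weak clones without overlap, a 6.10-fold difference of means with a log2 fold change of 2.60 ± 0.32 (edgeR, adjusted p = 7.74e-05).

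*Tbx3*, a T-box factor of naive ES cells, followed the same order. It was at 179 and 179 CPM in T41A, 127 and 163 CPM in T41I, 50.4 CPM in T41N, 28.8 CPM in T41S and 48.9 and 51.0 CPM in untreated cells (log2 fold change 2.22 ± 0.25, edgeR adjusted p = 3.46e-05). *Cdx1* and *Tbx3* were also called against T41N alone (adjusted p = 0.0122 and 0.00917) and against T41S alone (0.000756 and 4.09e-05). Both remained called without T41S.

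*Etv4* and *Gbx2* differed less. *Etv4*, an ETS factor, was at 111 to 130 CPM in the 4 strong clones, 80.7 CPM in T41N and 57.1 CPM in T41S, all above the 29.4 and 17.0 CPM of untreated cells (log2 fold change 0.90 ± 0.19, edgeR adjusted p = 0.00403). *Gbx2*, a homeobox gene downstream of LIF and β-catenin, was at 89.9 to 128 CPM in the strong clones, 74.7 CPM in T41N and 28.8 CPM in T41S (log2 fold change 1.36 ± 0.30, edgeR adjusted p = 0.00601). T41N alone did not pass the test against the strong clones for either gene (adjusted p = 0.217 and 0.306), and without T41S neither call held (0.223 and 0.310).

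The classical feedback genes were not called. *Axin2*, which encodes a scaffold of the destruction complex and is the usual readout of the pathway, was at 38.9 and 52.0 CPM in T41A and 52.4 and 50.4 CPM in T41I. T41N held 38.3 CPM (23.1 to 59.9) and T41S 42.4 CPM (33.3 to 53.1). The groups overlapped, the log2 fold change was 0.26 ± 0.22 (edgeR, adjusted p = 0.429), and all 6 clones were above the 15.8 and 13.8 CPM of untreated cells. *Bmp4* was at 147 to 178 CPM in the strong clones, 135 CPM in T41N, 140 CPM in T41S and 48.9 and 54.2 CPM in untreated cells. *Sp5*, a zinc finger factor that acts with TCF proteins, ranged from 41.3 to 109 CPM in the strong clones, around the 62.5 CPM of T41N and 80.2 CPM of T41S, against 15.2 and 14.9 CPM in untreated cells. *Notum*, a secreted Wnt deacylase, was at 26.8 to 72.1 CPM in the strong clones, 38.3 CPM in T41N and 26.0 CPM in T41S, above the 9.24 and 8.51 CPM of untreated cells. For these 4 genes the weak clones were thus above untreated cells and inside or near the range of the strong clones. Both weak clones lay above both untreated libraries for 37.3% of all genes tested. The other uncalled targets did not share this order. *Znrf3*, a ligase that removes Wnt receptors, had a log2 fold change of 0.61 ± 0.30 (edgeR, adjusted p = 0.169). It was at 24.0 to 42.7 CPM in the strong clones, 16.1 CPM in T41N and 26.0 CPM in T41S. Untreated cells held 23.9 and 23.4 CPM of *Znrf3*, above T41N. *Nkd1*, an inhibitor of Dishevelled, was under 11 CPM in every clone and could not be resolved (-0.85 ± 0.67, edgeR adjusted p = 0.395). Untreated cells held 9.24 and 9.57 CPM of *Nkd1*. This was above the strong clones (1.55 to 8.27 CPM) and T41N (2.02 CPM) and below T41S (10.2 CPM).

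**Figure D1:**
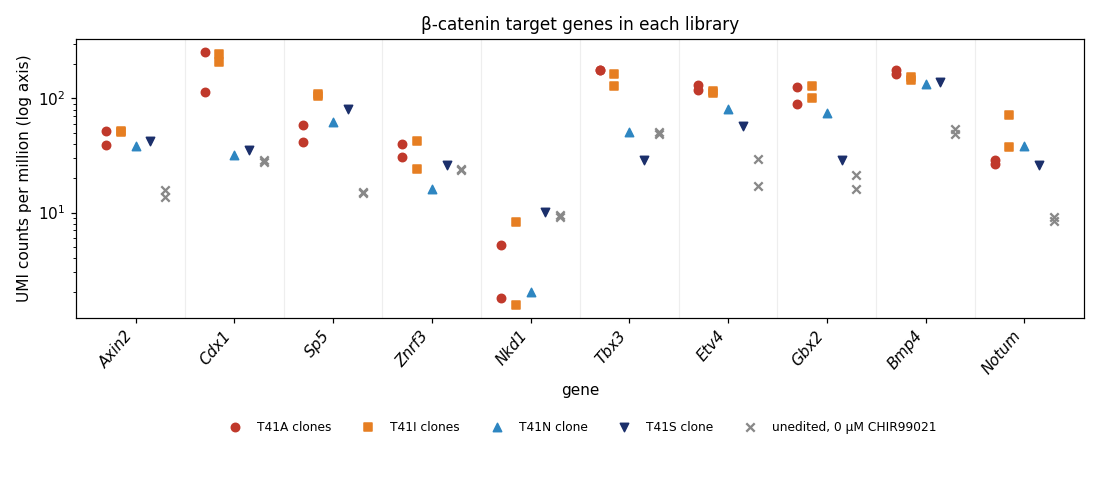
CPM of UMI counts (log axis) of the 10 β-catenin targets picked by the study, 1 point per library, for T41A (2 clones), T41I (2), T41N (1), T41S (1) and untreated unedited cells (2). *Cdx1* and *Tbx3* separate the strong from the weak clones, while for *Axin2*, *Bmp4* and *Sp5* all 6 clones lie above the untreated cells.

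Other Wnt targets did not run in 1 direction. Of 16 listed, 7 were in the fit. Of these 1 was higher and 3 were lower, against 9.25% and 12.7% of all genes tested. *Sfrp1*, which encodes a secreted Wnt antagonist, was higher in T41A and T41I (84.1 to 107 CPM against 74.7 CPM in T41N and 27.1 CPM in T41S, log2 fold change 1.22). *Lef1*, *Ccnd1* and *Tnfrsf19* were lower. *Ccnd1*, the cyclin of the G1 phase, was at 75.5 to 157 CPM in the strong clones, 250 CPM in T41N and 191 CPM in T41S (log2 fold change -1.03). *Lef1*, itself a TCF family member, was at 10.2 to 24.8 CPM, 52.5 CPM and 27.7 CPM (-1.11), and *Tnfrsf19* at 3.59 to 16.5 CPM, 22.2 CPM and 41.8 CPM (-1.70). Without T41S none of the 4 was called. The log2 fold changes then were -1.62 for *Lef1* and -1.23 for *Ccnd1*, no smaller than with T41S, but 0.43 for *Sfrp1* and -1.06 for *Tnfrsf19* (edgeR, adjusted p = 0.0806, 0.0691, 0.442 and 0.477). *Lef1* also lost its call without T41N (adjusted p = 0.227) or without the first T41A, second T41A or first T41I clone. *Myc* and *Tcf7* were not called. Among TCF factors and their cofactors, *Tcf7l2* and *Bcl9l* of 8 tested were lower in T41A and T41I (log2 fold change -1.61 and -1.79), against 12.7% of all genes, and neither was called without T41S or against T41N alone (edgeR, adjusted p = 0.255 and 0.187 against T41N). *Tcf7l1* was at 111 to 138 CPM in the strong clones, 163 CPM in T41N and 155 CPM in T41S, without a call (edgeR, adjusted p = 0.147). In the destruction complex, 9 of 11 genes tested were not called, *Csnk1a1* was higher (0.50) and *Gsk3b* lower (-0.65), a share near the 22.0% called among all genes, and neither was called without T41S.

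The Wnt ligands in the fit were lower in the strong clones. All 6 of the ligand and secretion genes in the fit, of 14 listed, were called, 5 lower and 1 higher. Among all genes tested 12.7% were lower and 9.25% higher. *Wnt3*, *Wnt4* and *Wnt7b* passed the filter on low counts through T41N and T41S, so their direction was partly set by the filter. *Wnt4* was at 2.996 and 4.46 CPM in T41A and 8.27 and 5.43 CPM in T41I. It reached 60.5 CPM in T41N and 172 CPM in T41S, above the 11.4 and 12.8 CPM of untreated cells (log2 fold change -4.54 ± 0.39, edgeR adjusted p = 3.91e-06). *Wls*, the carrier that brings Wnt proteins to the cell surface, was at 10.2 to 17.9 CPM in the strong clones, 62.5 CPM in T41N and 146 CPM in T41S (-2.93). *Wnt3* (-3.58), *Wnt6* (-2.24) and *Wnt7b* (-2.59) were also lower. *Porcn*, which adds the lipid that Wnt proteins need for secretion, went the other way, at 31.8 to 53.5 CPM, 28.2 CPM and 18.1 CPM (1.05). Without T41S 2 of the list were called, both lower.

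Receptors were mixed, with 1 higher, 4 lower and 4 not called of 9 tested, against 9.25% higher and 12.7% lower of all genes. Without T41S 1 was called, lower. *Fzd2* was at 3.72 to 7.76 CPM in the strong clones, 36.3 CPM in T41N and 86.4 CPM in T41S (log2 fold change -3.36 ± 0.35, edgeR adjusted p = 1.92e-05). *Fzd5* showed the opposite order, at 105 to 158 CPM, 64.6 CPM and 27.1 CPM (1.86 ± 0.29, edgeR adjusted p = 0.000553, and 0.0687 without T41S). *Ryk*, *Fzd7* and *Lgr4* were lower by less than 1 on the log2 scale.

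Naive pluripotency genes were higher in T41A and T41I. Of 13 in the fit, 11 were higher and none was lower, with a list median of 1.26, against 9.25% higher and a median of 0.04 among all genes tested. The log2 fold changes of the 11 ran from 0.95 for *Nanog* to 2.25 for *Tfcp2l1*. *Tfcp2l1*, a transcription factor of the naive network that acts downstream of both LIF and GSK3 inhibition, was at 934 and 911 CPM in T41A and 1051 and 1127 CPM in T41I. T41N held 301 CPM (254 to 353) and T41S 154 CPM (136 to 173), both below the 475 and 387 CPM of untreated cells (log2 fold change 2.25 ± 0.22, edgeR adjusted p = 1.36e-05). The groups did not overlap, and untreated cells lay between them.

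*Klf4*, one of the reprogramming factors, was at 839, 923, 697 and 519 CPM in the strong clones, 262 CPM in T41N and 163 CPM in T41S, beside 264 and 277 CPM in untreated cells (log2 fold change 1.89, edgeR adjusted p = 0.000104). *Esrrb*, an orphan nuclear receptor, was at 537 to 661 CPM, 274 CPM and 121 CPM, beside 346 and 286 CPM (1.67). *Tcl1*, an Akt coactivator, was at 89.6 to 115 CPM, 28.2 CPM and 20.3 CPM, with untreated cells at 101 and 95.7 CPM, like the strong clones (2.23). *Nr0b1* (1.56), *Fgf4* (1.26), *Klf5* (1.16), *Zfp42* (1.14) and *Klf2* (1.09) were also higher. For *Fgf4* untreated cells, at 327 and 333 CPM, exceeded all 6 clones. *Nr5a2* and *Dppa3* had log2 fold changes of 1.11 and 1.097 without a call (edgeR, adjusted p = 0.0544 and 0.107), with only T41S below the strong clones. Against T41N alone 8 of the 13 were called and against T41S alone all 13. Without T41S the 2-group comparison called 8 of 14 tested, all higher, and *Nanog* was no longer called (adjusted p = 0.297).

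General pluripotency genes differed less. Of 11 tested, 5 were higher, against 9.25% of all genes, among them *Dppa5a* (1.43), *Tdgf1* (0.84), *Sox2* (0.71) and *Dppa2* (0.67). *Sox2* was at 549 to 707 CPM in the strong clones, 517 CPM in T41N and 310 CPM in T41S, beside 640 and 632 CPM in untreated cells, so T41S alone stood apart. Without T41S 1 gene of the list was called.

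Primed pluripotency genes, which mark the later epiblast, were split 4 lower to 2 higher of 6 tested. The shares of all genes were 12.7% lower and 9.25% higher. *Pou3f1*, a POU factor of the primed and early neural state, was at 8.99 and 15.6 CPM in T41A and 15.2 and 12.4 CPM in T41I, against 101 CPM in T41N, 181 CPM in T41S and 67.9 and 55.3 CPM in untreated cells (log2 fold change -3.47 ± 0.26, edgeR adjusted p = 1.67e-06). *Sox4* was at 43.7 to 62.0 CPM in the strong clones, 186 CPM in T41N and 233 CPM in T41S (-1.98). *Dnmt3b*, a de novo DNA methyltransferase, was at 98.9 to 217 CPM, 397 CPM and 366 CPM (-1.40), and *Dnmt3a* was lower by 0.80 on the log2 scale. *Zic2* gave 0 counts in both weak clones, which allows up to 6.05 CPM in T41N and 1.69 CPM in T41S, and 3.88 to 12.6 CPM in the strong clones, and it was not called without T41S (adjusted p = 0.238). *Foxd3* (1.39) lost its call under 7 of 12 alternatives. Without T41S 3 of the list were called, all lower.

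**Figure D2:**
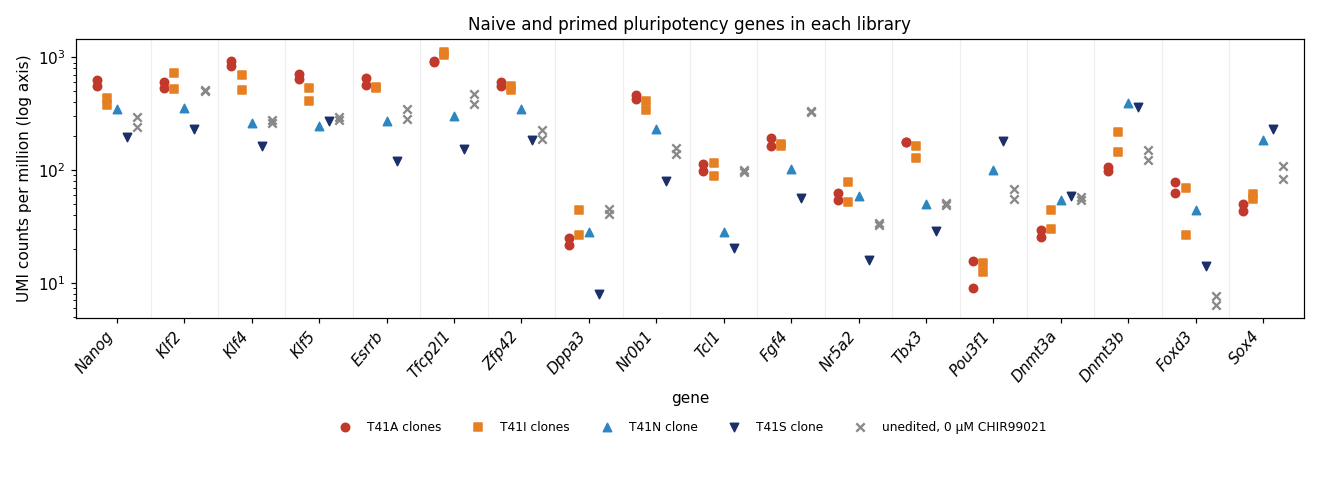
CPM of UMI counts (log axis) of the naive and primed pluripotency genes in the fit, 1 point per library; *Zic2*, at 0 in both weak clones, is not drawn. The 4 strong clones lie above T41N and T41S for *Tfcp2l1*, *Klf4*, *Esrrb*, *Tcl1* and *Tbx3* and below them for *Pou3f1*, *Dnmt3b* and *Sox4*.

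The DNA methylation machinery moved in both directions. *Tet2*, a dioxygenase that starts demethylation, was at 145 to 237 CPM in the strong clones, 66.6 CPM in T41N and 36.7 CPM in T41S (log2 fold change 2.14, edgeR adjusted p = 8.77e-05). *Tet3* was at 2.33 to 4.13 CPM, 18.2 CPM and 22.6 CPM (-2.68). The maintenance genes *Dnmt1* (0.55) and *Uhrf1* (0.70) were higher, so 3 of 8 genes tested were higher, 3 lower and 2 not called. The shares of all genes were 9.25% higher and 12.7% lower. Without T41S 1 remained higher and 1 lower.

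Contractile and actin cytoskeleton genes were lower in the strong clones, and no other of the 28 lists held as many calls in 1 direction. All 15 genes in the fit, of 17 listed, were lower, with a median log2 fold change of -2.27, against 12.7% lower among all genes tested. A count of calls also depends on the size of a list, and the lists were chosen with earlier results of these data known. *Acta2*, smooth muscle actin (chr19:34241090-34255590, GRCm38), was at 32.4 and 43.9 CPM in T41A and 44.8 and 19.4 CPM in T41I. T41N held 646 CPM (577 to 720) and T41S 1169 CPM (1119 to 1220), against 64.7 and 87.2 CPM in untreated cells. The mean of the weak clones was 25.8-fold that of the strong clones, with a log2 fold change of -4.68 ± 0.26 (edgeR, adjusted p = 2.67e-07). Both weak clones were therefore above untreated cells, and the strong clones were below them.

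*Tagln*, a calponin-like protein of smooth muscle, was at 34.1 to 86.1 CPM in the strong clones, 621 CPM in T41N, 1147 CPM in T41S and 89.7 and 128 CPM in untreated cells (log2 fold change -4.03). *Tpm1*, a tropomyosin, was at 159 to 219 CPM, 1350 CPM and 2628 CPM, with untreated cells at 427 and 430 CPM (-3.38). *Cnn1* (-4.50), *Myl9* (-3.58), *Tpm2* (-2.91) and *Cnn2* (-2.27) gave the same order. Cytoplasmic *Actb* took 0.928% to 1.32% of all counts in the strong clones, 1.97% in T41N and 2.45% in T41S (-1.04), and *Actg1* was lower by 0.78 on the log2 scale. The matricellular genes *Thbs1* (-4.02), *Ccn2* (-2.24) and *Ccn1* (-2.11), known targets of YAP and SRF, belonged to the list too. Against T41N alone 13 of the 15 were called and against T41S alone 15. Without T41S 13 of 15 were called, all lower.

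Intermediate filament and adhesion genes went with them, with 7 of 10 lower, none higher and 3 not called, against 12.7% lower of all genes. Without T41S 4 of 10 were called, all lower. *Krt8* was at 83.3, 89.2, 163 and 89.2 CPM in the strong clones, 718 CPM in T41N, 1738 CPM in T41S and 139 and 151 CPM in untreated cells (log2 fold change -3.52 ± 0.29, edgeR adjusted p = 3.11e-06). Its partner *Krt18* was at 67.1 to 125 CPM, 547 CPM and 1258 CPM (-3.38). *Vim*, the filament of mesenchymal cells, was at 96.5 to 150 CPM, 662 CPM and 782 CPM, beside 147 and 147 CPM in untreated cells (-2.50). *Cdh2* (-2.68), *Cdh3* (-1.91), *Zeb2* (-4.19, at most 1.49 CPM in the strong clones) and *Cdh1* (-0.48) were lower. *Cdh1*, the epithelial cadherin that ES cells express, was at 610 to 802 CPM, 801 CPM and 1201 CPM, so only T41S lay clearly apart, and its call was lost without T41S (adjusted p = 0.725) and without the first T41A, second T41A or first T41I clone (0.0800, 0.107 and 0.116).

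**Figure D3:**
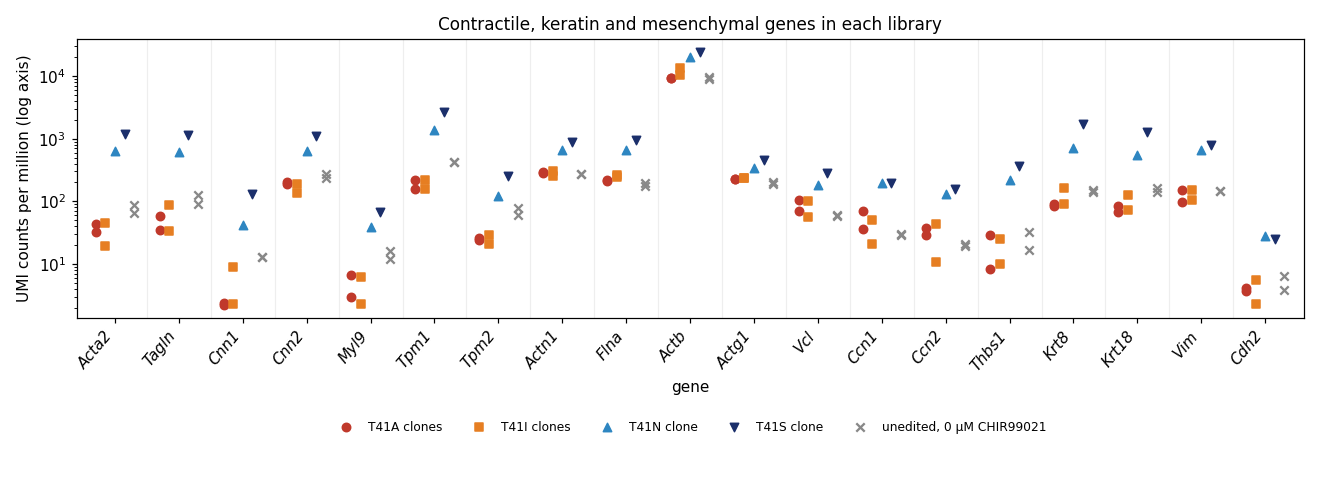
CPM of UMI counts (log axis) of the contractile genes in the fit and of *Krt8*, *Krt18*, *Vim* and *Cdh2*, 1 point per library. T41N and T41S lie above all 4 strong clones for each of the genes drawn, and above both untreated libraries as well.

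Smooth muscle and cytoskeletal genes are classical targets of serum response factor (SRF), which binds the CArG box. RefSeq promoters (GRCm38.p6) were at hand for 11 of the 15 contractile genes, and 4 of the 11 held a CArG box in the 250 bases before the start of the gene, against 1.32% of 7940 genes in the fit with a promoter. The pattern searched for the box is its own reverse complement, so 1 search covers both strands. The contractile list was itself made of smooth muscle and cytoskeletal genes, so the excess over all genes can come from the choice of the list. It therefore says nothing about the difference between the strong and weak clones. Whether the box goes with that difference was not tested. The match is a description of these letters and no binding was measured. The windows of *Cnn2* (chr10:79988524-79988573, plus strand), *Myl9* (chr2:156775283-156775332, plus strand), *Actg1* (chr11:120348556-120348605, minus strand) and *Vcl* (chr14:20929151-20929200, plus strand) are shown because they hold the box, in capitals.

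Cnn2: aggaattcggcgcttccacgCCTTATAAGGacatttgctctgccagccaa

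Myl9: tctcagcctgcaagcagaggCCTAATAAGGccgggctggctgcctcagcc

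Actg1: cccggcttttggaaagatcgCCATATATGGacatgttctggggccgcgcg

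Vcl: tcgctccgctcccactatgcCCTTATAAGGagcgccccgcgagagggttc

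The 4 genes carrying these boxes had log2 fold changes of -2.27, -3.58, -0.78 and -1.52, within the span of the list. *Acta2*, *Cnn1*, *Tpm1*, *Tpm2*, *Actn1*, *Flna* and *Ccn1* had no match in the window. The TCF motif, searched as CTTTGAA and CTTTGAT on both strands, was in 1 of the 5 study targets with a promoter, in none of the 11 contractile genes and in 6.06% of genes in the fit.

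Markers of other cell types were examined because bulk counts cannot tell a change in RNA per cell from a change in the share of cells of another type. For the marker lists here and in the next paragraph, the shares of all genes tested were 12.7% lower and 9.25% higher. *Col1a1*, the fibroblast collagen, was at 2.07 to 6.69 CPM in the strong clones, 48.4 CPM in T41N, 126 CPM in T41S and 24.5 and 13.8 CPM in untreated cells (log2 fold change -4.69, edgeR adjusted p = 4.71e-06). It was the only one of the 10 fibroblast markers in the fit, which it entered through T41N and T41S. *Col1a2* was at 0.689 to 1.49 CPM in the strong clones, 6.05 CPM in T41N and 19.8 CPM in T41S. *Twist2* had the same order, at 0 to 0.776 CPM, 6.05 CPM and 8.47 CPM. For both genes the T41N value is 3 counts, which is at the floor, so the place of T41N is not resolved. *Pdgfrb*, at 0 to 7.43 CPM, 2.02 CPM and 3.95 CPM, did not follow, and *Col3a1* was at 0 in T41N. The summed fibroblast list was 5.51 to 21.6 CPM in the strong clones, 68.6 CPM in T41N and 181 CPM in T41S, and each of the other 9 markers was at most 19.8 CPM in any of the 6 clones, with *Lum* and *Dcn* at 0 in T41N and at 0.565 and 1.69 CPM in T41S. Neural markers *Nes* (-3.69), *Sox11* (-2.57) and *Map2* (-2.32) were lower in the strong clones, 3 of 5 tested (2 without T41S), with *Neurog2*, *Dcx* and *Zic1* at 0 in all 6. The trophoblast list gave *Hand1* (-2.80), *Wnt7b* and *Krt7* (-2.19) lower of 5 tested, and none was called without T41S.

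The primitive endoderm list separated into its parts. The matrix genes *Sparc* (-2.03), *Col4a2* (-1.83), *Col4a1* (-1.77) and *Lamb1* (-1.12) were lower in the strong clones, and *Lama1* (1.01) was higher, of 10 tested. Without T41S 1 of the list was called, lower. *Sparc* was at 345 to 726 CPM in the strong clones, 1404 CPM in T41N and 2600 CPM in T41S, beside 458 and 502 CPM in untreated cells. The defining transcription factors did not follow the matrix genes, with *Gata6* at 3.10 to 16.2 CPM in the strong clones, 0 in T41N and 5.08 CPM in T41S, and *Sox17* at 0 to 19.8 CPM, 0 and 6.21 CPM. Of the streak and mesendoderm list 2 of 14 genes were in the fit and neither was called. *T* (Brachyury), a direct β-catenin target of the primitive streak, was at 15.6 to 27.5 CPM in the strong clones, 8.07 CPM in T41N and 48.6 CPM in T41S (edgeR, adjusted p = 0.188). Against T41S alone it was lower in the strong clones (log2 fold change -1.31, edgeR adjusted p = 0.0119), against T41N alone the fold change was 1.27 without a call (0.330), and without T41N 4 of 6 streak genes tested were lower. *Gsc*, *Cer1* and *Msgn1* were at 0 in all 6. Of the Cdx, Hox and retinoic acid list *Crabp2* alone of 5 tested was called (-1.38). The part of other cell types in the contractile and keratin difference was not tested.

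Of the BMP list the Id genes were lower in the strong clones. *Id2*, an inhibitor of basic helix-loop-helix factors that BMP signals induce, was at 21.6 to 28.2 CPM in the strong clones, 153 CPM in T41N and 199 CPM in T41S, with untreated cells at 59.8 and 89.3 CPM (log2 fold change -2.84 ± 0.18, edgeR adjusted p = 5.82e-07). *Id3* (-1.56), *Id1* (-0.87) and the receptor *Bmpr1a* (-0.66) were lower as well, so 4 of 9 were lower and none higher, against 12.7% and 9.25% of all genes. *Msx1*, *Msx2*, *Smad6*, *Bambi* and *Bmp4* did not pass the test (edgeR, adjusted p = 0.121, 0.301, 0.169, 0.626 and 0.275).

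In the Nodal list 4 of 10 were lower and 1 was higher, and for this and the next lists the shares of all genes were 12.7% lower and 9.25% higher. The effector *Smad3* (-2.14), the feedback inhibitor *Lefty1* (-1.33) and the co-repressor *Skil* (-1.10) were among those lower, and the inhibitory *Smad7* (1.14) was higher. *Lefty1* was at 18.6 to 79.9 CPM in the strong clones, with T41N inside that range at 64.6 CPM and T41S above it at 124 CPM. *Skil* was at 113 to 163 CPM in the strong clones, 252 CPM in T41N and 327 CPM in T41S, below the 426 and 391 CPM of untreated cells. *Nodal* was not called.

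FGF and ERK response genes were split 3 higher to 4 lower of 14. The ERK feedback inhibitors *Spry4* (1.38) and *Spry2* (0.85) and *Etv4* were higher, and *Phlda1* (-1.83), *Ier3* (-1.78), *Dusp4* (-1.75) and the receptor *Fgfr1* (-1.31) were lower. *Spry2* was at 478 to 584 CPM in the strong clones, 305 CPM in T41N and 307 CPM in T41S, beside 230 and 205 CPM in untreated cells. Of the LIF and STAT3 list 6 of 11 were higher, *Klf4*, *Gbx2*, *Socs3* (1.22), the receptor *Lifr* (1.07), *Pim3* (0.83) and *Stat3* (0.57), and *Junb* (-0.80) was lower. *Socs3*, the feedback inhibitor that STAT3 induces, was at 161 to 294 CPM in the strong clones, 125 CPM in T41N and 89.3 CPM in T41S. Without T41S the calls were 2 BMP and 2 Nodal genes, all lower, and 1 FGF and 1 LIF gene, both higher.

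p53 targets were lower in the strong clones, 6 of 12 tested, with none higher, against 12.7% lower of all genes. *Perp*, a desmosomal p53 target, was at 25.8 to 48.9 CPM in the strong clones, 280 CPM in T41N and 364 CPM in T41S, against 47.8 and 44.7 CPM in untreated cells (log2 fold change -3.005, edgeR adjusted p = 7.70e-07). *Btg2* (-1.94), *Ccng1* (-1.21), *Mdm2* (-1.19), *Phlda3* (-0.69) and *Zmat3* (-0.60) were lower too. *Mdm2*, the ligase that degrades p53, was at 85.3 to 130 CPM, 252 CPM and 240 CPM, so the weak clones lay together. Without T41S 4 of the list were called, all lower.

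Of 17 imprinted genes 7 were lower in the strong clones and none was higher, against 12.7% and 9.25% of all genes. *Peg10* was at 157 to 206 CPM in the strong clones, 807 CPM in T41N, 1039 CPM in T41S and 130 and 176 CPM in untreated cells (log2 fold change -2.30 ± 0.14, edgeR adjusted p = 5.28e-07). *Dlk1* (-2.63), *Peg3* (-2.27), *Cdkn1c* (-2.10), *Igf2* (-1.99), *Mest* (-0.98) and *Grb10* (-0.95) were the others, and without T41S 4 were called. Germ cell genes *Sycp3* (1.82) and *Stra8* (3.93) and *Zscan4a* (3.81) of the 2-cell-like list were higher. *Stra8* and *Zscan4a* were at 0.776 CPM in the second T41I clone, below both weak clones, and *Zscan4a* shares sequence with near-identical copies, so both are uncertain, and they lost their calls under 6 and 8 of 12 alternatives.

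Of 21 glycolysis genes 5 were higher and 1 lower, against 9.25% and 12.7% of all genes, with *Pfkp* at 172 to 182 CPM in the strong clones, 84.7 CPM in T41N and 40.7 CPM in T41S (1.70) and the glucose transporter *Slc2a1* at 244 to 367 CPM, 535 CPM and 864 CPM (-1.09). Of 16 cholesterol synthesis genes 1 was higher and 2 lower, which is below the 22.0% called among all genes.

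**Figure D4:**
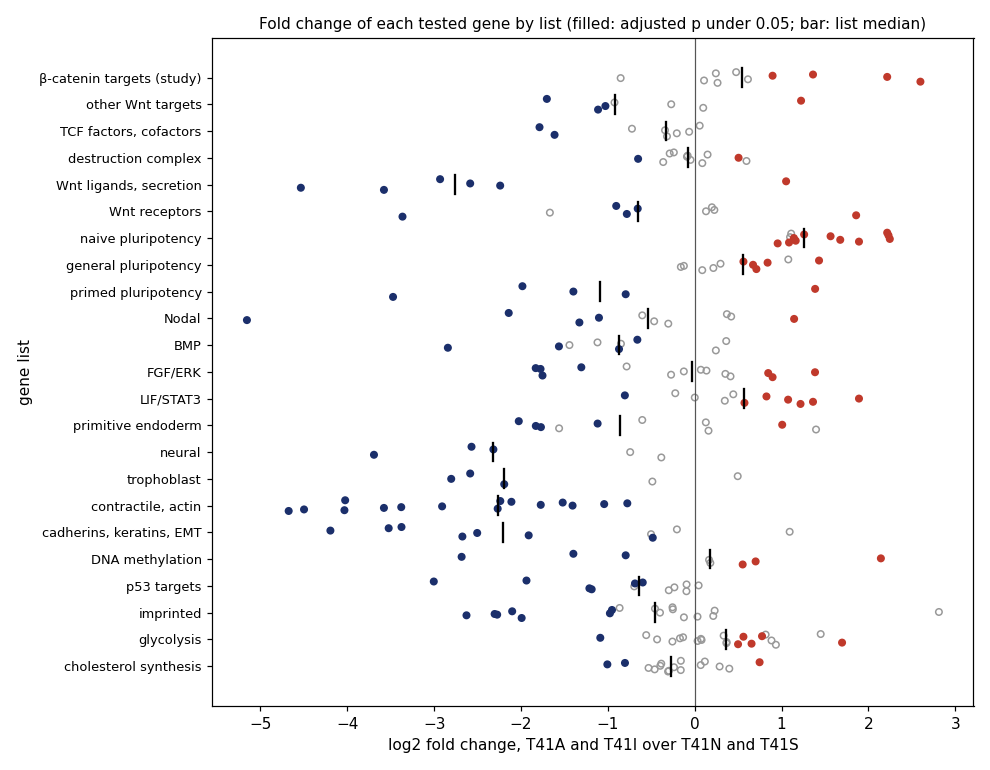
log2 fold change of T41A and T41I over T41N and T41S for each tested gene of 23 lists; filled points passed an adjusted p of 0.05, open points did not, and bars are list medians. *Zic2*, whose fold change has no measured denominator, is not drawn but is in its list's median. All contractile genes lie left of 0 and all naive pluripotency genes right of it.

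Among called genes averaging 20 CPM or more whose groups did not overlap, those with the greatest log2 fold changes upward were *Calb2* (4.06), *Trpm1* (3.03), *Mcf2* (3.02), *Accsl* (2.71), *Mobp* (2.69), *Halr1* (2.65), *Cdx1* (2.60), *Ephx2* (2.48), *Stag3* (2.38) and *Inhbb* (2.34). *Calb2*, the calcium buffer calretinin, was at 62.9 and 36.4 CPM in T41A, 24.1 and 24.8 CPM in T41I, 2.02 CPM in T41N and 2.26 CPM in T41S, with untreated cells at 9.78 and 14.9 CPM. *Ephx2*, the soluble epoxide hydrolase, was at 110 to 148 CPM, 26.2 CPM and 22.0 CPM, with untreated cells at 179 and 153 CPM, above all 6 clones. *Mobp* had 0 counts in T41N and 7.91 CPM in T41S. *Calb2*, *Trpm1*, *Mcf2*, *Accsl*, *Mobp*, *Halr1* and *Inhbb* passed the filter on low counts only with the strong clones. Their direction was thus partly set by the filter. *Cdx1*, *Ephx2* and *Mobp* kept their calls without T41S, whereas the other 7 lost them (edgeR, adjusted p = 0.0721 to 0.391). The log2 fold changes without T41S were 4.19 for *Calb2*, 2.85 for *Trpm1*, 2.60 for *Mcf2*, 2.27 for *Inhbb*, 2.21 for *Stag3*, 1.94 for *Halr1* and 1.02 for *Accsl*, so the difference shrank most for *Accsl*.

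The greatest differences downward were *Gbp2b* (-5.47), *Gbp2* (-4.93), *Col1a1*, *Acta2*, *Wnt4*, *Cnn1*, *Prss23* (-4.50), *Axl* (-4.22), *Ccn4* (-4.22) and *Kif1a* (-4.14), and all 10 kept their calls under each alternative run. *Gbp2* and *Gbp2b*, neighbouring interferon-induced GTPase genes of similar sequence, were at 2.07 to 4.65 CPM and 0 to 2.97 CPM in the strong clones, 36.3 and 28.2 CPM in T41N and 145 and 120 CPM in T41S. Untreated cells held 28.3 and 37.2 CPM of *Gbp2*, close to T41N. *Prss23*, a secreted serine protease, was at 5.99 to 14.5 CPM, 111 CPM and 302 CPM, and *Axl*, a receptor tyrosine kinase, at 1.55 to 5.95 CPM, 62.5 CPM and 76.3 CPM. *Ccn4*, also known as Wisp1 and named as a Wnt-induced gene, was at 1.80 to 3.72 CPM in the strong clones, 44.4 CPM in T41N, 66.7 CPM in T41S and 1.63 and 1.06 CPM in untreated cells. *Kif1a*, a neuronal kinesin, was at 40.4 and 68.9 CPM in the weak clones and at a like 47.8 and 57.4 CPM in untreated cells. *Gbp2b*, *Gbp2*, *Col1a1*, *Wnt4*, *Cnn1*, *Axl*, *Ccn4* and *Kif1a* passed the filter on low counts only with T41N and T41S. Their direction was thus partly set by the filter.

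Untreated unedited cells were set beside the called genes as a description. Of the 1304 genes lower in T41A and T41I, both weak clones lay above both untreated libraries for 1011 (77.5%) and all 4 strong clones lay below them for 633 (48.5%), against 37.3% and 25.1% of all genes tested. Of the 947 genes higher in T41A and T41I, both weak clones lay below untreated cells for 639 (67.5%) and the strong clones above them for 408 (43.1%), against 28.9% and 26.7%. These genes were chosen for a difference between the weak and strong clones, so part of the excess over all genes can come from the choice itself. The clones and the untreated cells also differ in editing, cloning and selection, and these cannot be told apart from the substitution.

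The CHIR99021 dose series gave a separate readout, that of GSK3 inhibition rather than of β-catenin alone. With dose 1342 of 10671 genes (12.6%) changed (edgeR, slope in log2 per µM). Without the first or the second untreated library, 549 or 850 genes were called. All 10 study targets rose, as the study had picked them on these libraries. Of the 947 genes higher in T41A and T41I, 912 were in both fits, and 60 (6.58%) rose with dose and 121 (13.3%) fell, against 5.63% and 6.92% of all genes in both fits. Of the 1304 lower genes, 1213 were in both, and 193 (15.9%) rose and 73 (6.02%) fell. Seen from the other side, of the 555 genes that rose with dose 60 (10.8%) were higher and 193 (34.8%) were lower in the strong clones, and of the 682 that fell 121 (17.7%) were higher and 73 (10.7%) were lower. The genes that differed between codon 41 substitutions did not run mainly in the direction of the dose response. *Krt8* (slope 0.13 ± 0.02), *Tagln* (0.12), *Wls* (0.15) and *Peg10* (0.15) rose with dose and were lower in the strong clones. *Tcl1* (-0.14), *Fgf4* (-0.13) and *Nanog* (-0.06) fell with dose and were higher in the strong clones. *Cdx1* (0.30), *Tbx3* (0.11), *Gbx2* (0.21), *Etv4* (0.12) and *Klf4* (0.08) rose with dose and were higher. *Pou3f1* (-0.27) and *Acta2* (-0.07 ± 0.02, edgeR adjusted p = 0.0337) fell with dose and were lower.

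**Figure D5:**
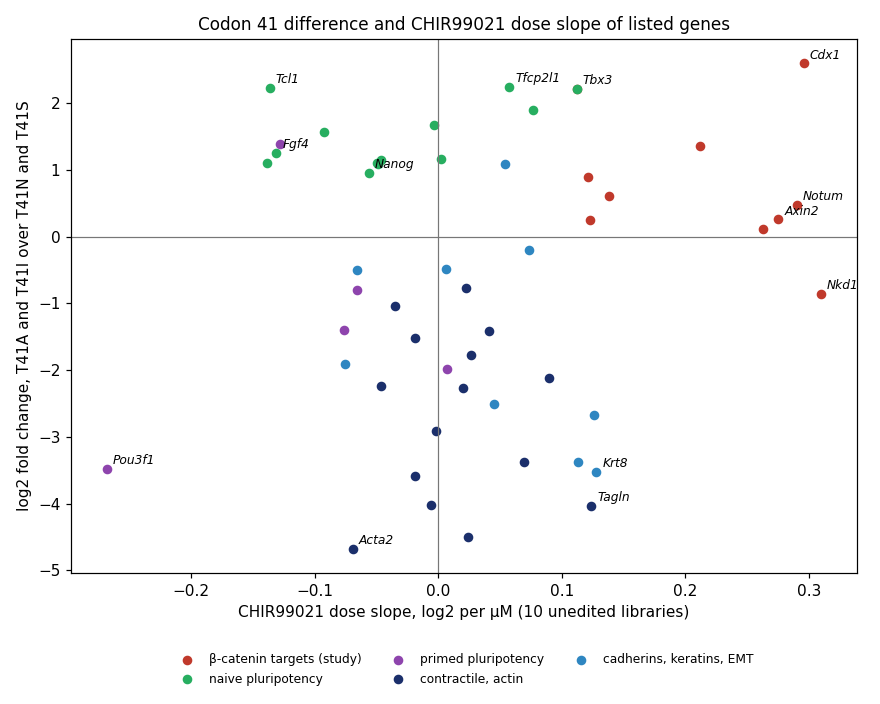
log2 fold change of T41A and T41I over T41N and T41S (vertical) against the slope of log2 expression per µM CHIR99021 in 10 unedited libraries (horizontal), 1 point per gene of 5 lists that is in both fits, with *Tbx3*, a member of the target and naive lists, drawn as naive. The study targets all lie right of 0, while naive pluripotency genes lie above 0 on both sides and the contractile genes lie below 0 on both sides.

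Clones with substitutions at other codons were set beside the codon 41 clones as values only. *Acta2* was at 241 CPM in the single S45C clone, 8.18 to 33.6 CPM in the 5 codon 37 clones and 25.7 to 133 CPM in the S45F and S45P clones. *Krt8* was at 505 CPM, 78.5 to 198 CPM and 68.8 to 288 CPM in the same order. *Tfcp2l1* was at 267 CPM, 807 to 1306 CPM and 667 to 707 CPM, and *Cdx1* at 34.7 CPM, 253 to 334 CPM and 61.2 to 81.6 CPM. On a log scale, in these 4 genes S45C lay nearer to T41N than to the strong codon 41 clones, and the codon 37 clones lay in or near the range of T41A and T41I.

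Few genes were called between T41N and T41S. Of 10242 genes 1 (0.00976%) was called, and 759 had an unadjusted p under 0.05 (edgeR, lone libraries assumed to vary like the strong clones). Without the second T41I clone 63 genes were called, and 67 without a filter on low counts. The gene, *Gm8730*, a processed pseudogene on chromosome 8, was at 115 CPM in T41N (87.1 to 149), 643 CPM in T41S and 630 to 712 CPM in the strong clones (log2 difference -2.49 ± 0.24, adjusted p = 0.00168). Reads of such a copy are shared with its parent gene, so its level is uncertain. DESeq2 called 5 genes, which were named after their values were seen. *Nr0b1* (234 CPM in T41N, 80.8 CPM in T41S) and *Tet1* (309 and 118 CPM) were higher in T41N, and skeletal muscle actin *Acta1* (101 and 390 CPM), *Tuba1a* (525 and 1221 CPM) and *Gm8730* were lower. For the genes above, T41N mostly lay between the strong clones and T41S, as for *Acta2* (log2 difference T41N minus T41S -0.86 ± 0.30), *Krt8* (-1.28 ± 0.34) and *Tfcp2l1* (0.96 ± 0.23), none of which passed the adjusted test (edgeR, adjusted p = 0.563, 0.362 and 0.349). *Cdx1*, *Axin2* and *Mdm2* were near equal in both weak clones.

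No gene was called between T41A and T41I (0 of 10242 by edgeR, with 858 at an unadjusted p under 0.05). DESeq2 called 1, *Ldhb*, at 889 and 743 CPM in T41A and 449 and 408 CPM in T41I. The second T41I clone differed more from its partner than the T41A clones did from each other, the chi-square of their counts divided by its degrees of freedom being 3.99 against 1.80, so this comparison of 2 against 2 clones could show only differences well above that spread. Without the first T41I clone 872 genes were called, from 1 remaining T41I library, without the second 63, and without the first T41A clone 1, *Gm10800*.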

How the data were processed

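The deposited table holds raw counts for 48440 genes in 25 libraries. The authors trimmed reads with Cutadapt, handled UMIs with UMI-tools, removed ribosomal reads with SortMeRNA and aligned the rest to mm10 with RNA STAR. Duplicates were marked with Picard, and genes were counted with featureCounts 2.0.1, without normalization. The annotation release and the strand setting of the counting are not given in the sources used here, so overlapping and antisense genes cannot be told apart. Reads shared between near-identical copies may be split or lost. Columns of samples outside the series numbered 0. IDs were matched to GENCODE M21 (GRCm38), with 48058 found, and 1570 Y chromosome genes were left out.

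CPM were computed from total counts. Models were fitted with edgeR 4.0.16 in R 4.3.3 (TMM scaling, low counts removed by filterByExpr at 10, quasi-likelihood tests, Benjamini-Hochberg adjustment over all genes tested, threshold 0.05). A gene could pass the filter through the strong or the weak clones alone, and its direction was then partly set by the filter. The strong and weak groups were fitted as 2 groups over the 6 libraries, T41N and T41S separately in a fit with 3 groups, T41A against T41I in a fit by genotype, and the dose as a slope over 10 unedited libraries. SE is the size of the log2 fold change divided by the square root of F. The study's own test, DESeq2 between clusters of clones, was replaced by edgeR, with DESeq2 1.42.0 as an alternative on the same groups. Nothing in the labels says more of the clones than that they are separate. The fit with 2 groups pools T41A with T41I and T41N with T41S. Its p-values thus measure a spread in which clone and substitution are mixed. In the fit with 3 groups the spread comes from the T41A and T41I clones only. The T41A and T41I clone numbers come from the labels, and same-numbered clones did not deviate together. The model fits were tested on simulated counts. Figures were drawn with matplotlib 3.10.9.

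Named genes were those of 28 lists that passed the test, the 10 study targets, *Ctnnb1* and the 10 greatest and 10 smallest fold changes among called genes averaging 20 CPM or more whose groups did not overlap. The members and the lists were chosen with earlier results of these data known. Some listed genes are not reported here by name.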

Additional observations from a re-analysis of the deposited data

Results flagged for a closer look

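In the 4 T41A and T41I libraries 5 of 153 measures had 1 library whose gap to the nearest other exceeded Dixon's 95% limit for 4 values (the gap taken as a share of the range). Chance alone flags about 1 in 20. *Cnn1* was at 8.96 CPM in the first T41I clone against 2.23 to 2.40 CPM in the other 3 (ratio 0.975). *Krt8* was at 163 CPM in the same clone against 83.3 to 89.2 CPM (0.926). *Lama1* was at 189 CPM in the first T41A clone against 82.0 to 97.0 CPM (0.861). *Wnt7b* was at 6.98 CPM in the second T41I clone against 4.46 to 4.82 CPM (0.856). *Axin2* was at 38.9 CPM in the first T41A clone against 50.4 to 52.4 CPM (0.855), which put this clone beside T41N and T41S.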

How the results depend on the processing

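Of 149 named genes, of which 142 to 149 were fitted under each of 12 alternatives, no called gene changed direction. Of those not called, *Sp5* changed sign without the first T41I (-0.06), second T41I (-0.12) or T41N clone (-0.04), *Ctnnb1* without T41N (-0.055) and *Nkd1* without T41S (1.05). Over single libraries left out, these 3 ranged from -0.12 to 0.35, from -0.055 to 0.25 and from -1.26 to 1.05 in log2 fold change. In all, 61 of the 142 called genes kept their call under all 12. The count of 2251 genes between the strong and weak clones ran from 352 (without T41S) to 2724 (without the second T41I clone) over single libraries left out, and was 1448 with the replicate number as a block and 1233 with counts thinned to the smallest library. T41A and T41I against T41N gave 285 to 911 calls over libraries left out, with 911 without the second T41I clone, and 815 without a filter. Against T41S the range was 1556 to 3186, and DESeq2 gave 1041. T41N against T41S gave 1 to 63 over libraries left out (63 without the second T41I clone), 67 without a filter and 5 with DESeq2. T41A against T41I gave 0 to 872, 143 without a filter and 1 with DESeq2. The dose slope gave 549 to 1412 calls, with 549 and 850 without either untreated library. Without T41S 80 of the named genes lost their call. The replicate numbers did not pair the T41A and T41I clones (correlation of deviations -0.21 over 7016 genes), and the block gave 0 calls between them. The crossed pairing, added after this was seen, gave 151. No chromosome shifted by 0.3 or more, so leaving out such chromosomes was not run. T41N, with 495616 counts, has the widest counting error of the 6 libraries.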
